A study of Mus musculus with 8 samples.

Results

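The mitochondrial genome genes are the 37 genes of the deposited tables whose names begin with mt-, out of 55401 genes listed. They comprise 13 genes that encode proteins, 22 transfer RNA (tRNA) genes and 2 ribosomal RNA (rRNA) genes. They were chosen by name, not by a cutoff on any measured value, though with earlier results of these data known. The cells were AtT-20, a corticotrope line of the mouse pituitary, and their 8 libraries form 4 groups of 2, at 0, 24, 48 and 72 h of tamoxifen. Every group carries ER-Pax7, a tamoxifen-activated version of the pituitary transcription factor Pax7, and the 0 h group is the control with the same genotype. Libraries of cells without ER-Pax7 or with vehicle at matched times were not used here, so activation of ER-Pax7, tamoxifen itself and hours in culture cannot be told apart. The promoter that drives ER-Pax7, and whether the line is 1 clone, are not stated in the labels. Of 6 corticotrope markers, 5 averaged at least 1 in signal (Pomc, the hormone precursor of these cells, averaged 592). Of the melanotrope, other pituitary, fibroblast, immune and endothelial markers, 0 did, and Drd2, Prl, Tshb, Fshb, Col1a2, Lum and Kdr were listed at 0 in every library.

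The mammalian mitochondrial genome is a small circle that leaves few bases between its genes. Both strands are transcribed from the noncoding control region into long precursors, and the tRNAs lying between the other genes mark where RNase P and Elac2 cut the precursor into separate RNAs. The 13 proteins are core subunits of the respiratory chain complexes I, III and IV and of the ATP synthase (complex V), while the tRNAs and rRNAs serve the mitochondrial ribosome that translates them. Because neighbouring RNAs start from shared precursors, differences in their steady levels are usually ascribed to unequal stability, in which Lrpprc and Slirp take part for the messenger RNAs.

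Although the molecule label reads genomic DNA, the protocol describes RNA extraction and rRNA depletion, and the values were treated as RNA; any part of mitochondrial DNA in them was not tested. Values are the deposited signal, read as mean coverage per base of a gene's exons, so levels of different genes are compared per length. The sum over all genes of a library ran from 164236 to 178548, and the number of reads is unknown. Errors are SD over n = 2 libraries unless another n is given. Whether the libraries of a group came from separate cultures is not labelled, and the p-values reflect the spread between libraries alone, part of which may be technical. In bulk RNA, fewer cells of a type and less RNA per cell cannot be told apart.

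All 13 coding genes were among the 366 highest genes of the tables, with mt-Co1 at rank 22 and mt-Nd6 at rank 366. Their summed signal was 2111 ± 126 before tamoxifen (0 h), then 2049 ± 154 at 24 h, 2196 ± 104 at 48 h and 2075 ± 102 after 72 h. The library sums ran from 1941 to 2269, so the groups overlapped. Weighted by gene length, coding genes held 0.709% to 0.839% of the signal of a library. With 2 libraries against 2, an exact permutation test cannot give a p below 0.333 for such a sum, so none is given.

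Per length, the coding genes covered a 9.92-fold range, from 340.5 for mt-Co1 to 34.3 for mt-Nd6, as means over the 8 libraries. The order was mt-Co1, mt-Atp6 (311), mt-Co3 (305), mt-Atp8 (262), mt-Co2 (249), mt-Nd3 (139.9), mt-Cytb (103), mt-Nd4 (95.4), mt-Nd1 (85.6), mt-Nd4l (82.8), mt-Nd5 (61.1), mt-Nd2 (38.8) and mt-Nd6. Of the 12 pairs of neighbours in that order, 5 had ranges that did not overlap over the 8 libraries: mt-Co3 above mt-Atp8, mt-Co2 above mt-Nd3, mt-Nd3 above mt-Cytb, mt-Nd4l above mt-Nd5, and mt-Nd5 above mt-Nd2. The other 7 pairs overlapped, among them mt-Co1 and mt-Atp6, although mt-Co1 was the higher of these in 8 of 8 libraries. The gene of lowest mean, mt-Nd6, is also the 1 coding gene on the minus strand. Some coding genes have near-identical copies in the nuclear genome (described below), and how reads that fit both were counted is not stated. The order of the genes and the 9.92-fold range may depend on that counting.

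**Figure D1:**
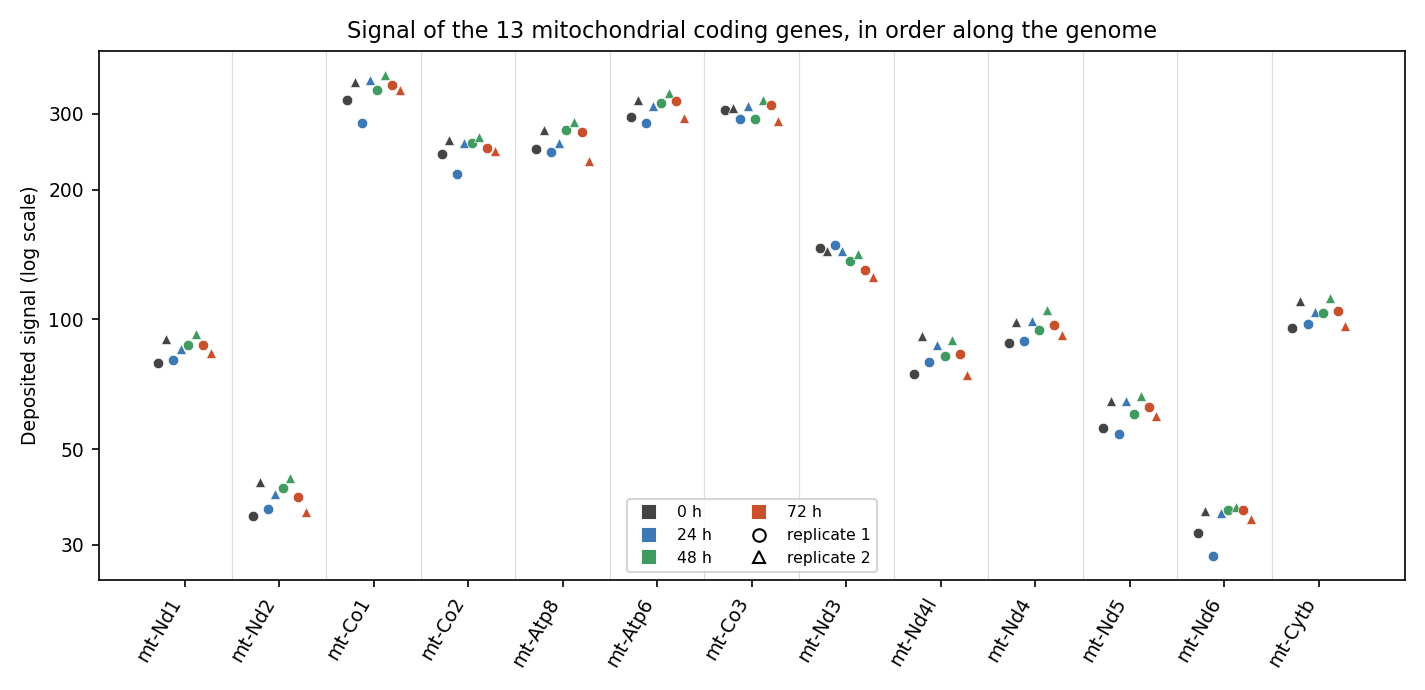
Deposited signal (log scale) of the 13 coding genes in the order in which they lie on the genome, with 1 point per library, coloured by hours of tamoxifen and shaped by replicate. The spread between libraries of a gene is small beside the 9.92-fold range between genes, and mt-Nd3 is the gene whose 72 h points are its 2 lowest.

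The 3 complex IV subunits and both subunits of complex V made up the upper end. mt-Co1 (ENSMUSG00000064351.1, GRCm38 chromosome M, 5328 to 6872, plus strand), the catalytic core of cytochrome c oxidase, read 323 and 355 at 0 h, 286 and 359 at 24 h, 340.2 and 369.6 at 48 h, and 350.3 and 340.4 at 72 h, with replicate 1 before replicate 2. mt-Co2, which receives electrons from cytochrome c, read 242 and 261, 217 and 256, 256 and 265, and 250.2 and 246 in the same order of times and replicates, which holds for each list of 8 values below. mt-Co3, a structural core subunit, read 306 and 309.8, 292 and 314, 293 and 324, and 314 and 288. For these 3 genes the libraries of every later time overlapped those of 0 h, and the lowest mt-Co1 and mt-Co2 values both came from replicate 1 at 24 h.

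mt-Atp6, the subunit that forms the proton path of the ATP synthase, read 295 and 323, 286 and 312, 318 and 336, and 321 and 293. mt-Atp8, a small membrane subunit of the same enzyme, read 249 and 275, 244 and 257, 275 and 288, and 272 and 233. Both 48 h values of mt-Atp8 lay above both 0 h values, by a narrow margin, while at 24 and 72 h the groups overlapped. Complex IV genes held 42.4% of the summed coding signal on average over libraries, complex V genes 27.1%, complex I genes 25.5% and mt-Cytb, the 1 mitochondrially encoded subunit of complex III, 4.89%. The library range of the complex IV share was 41.0% to 43.7%. These shares carry the same limit from nuclear copies as the order of the genes. The plot of coding signal by gene shows this division as an upper group of 5 genes.

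mt-Atp8 and mt-Atp6 are read from 1 messenger RNA in overlapping frames. Their genes share 43 bases, which are printed in capitals in the mt-Atp8 sequence (GRCm38 chromosome M, 7766 to 7969, plus strand) because the signal over them counts for both genes:
mt-Atp8: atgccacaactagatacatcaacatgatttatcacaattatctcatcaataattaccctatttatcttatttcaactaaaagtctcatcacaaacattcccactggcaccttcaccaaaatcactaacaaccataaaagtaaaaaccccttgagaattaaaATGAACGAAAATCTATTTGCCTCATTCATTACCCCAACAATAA
The mt-Atp8 to mt-Atp6 ratio was 0.842 ± 0.0229 (SD, n = 8 libraries), from 0.794 in replicate 2 at 72 h to 0.867 in replicate 1 at 48 h. mt-Nd4l and mt-Nd4, the other overlapping pair on 1 messenger RNA, share 7 bases and had a ratio of 0.868 ± 0.0369 (SD, n = 8 libraries).

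Complex I takes electrons from NADH, and its 7 mitochondrial subunits build the membrane arm that pumps protons. mt-Nd1 read 79.1 and 89.9, 80.3 and 85.1, 87.0 and 92.2, and 87.3 and 83.8. mt-Nd2 read 35.0 and 41.9, 36.2 and 39.4, 40.6 and 42.9, and 38.7 and 35.6. mt-Nd4l read 74.6 and 91.4, 79.7 and 87.3, 82.1 and 89.4, and 83.3 and 74.2. In these 3 genes the 0 h libraries lay apart from each other and the groups overlapped at each later time.

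mt-Nd4 read 88.1 and 98.4, 89.0 and 99.0, 94.2 and 105, and 96.8 and 92.2. mt-Nd5, the distal proton-pumping subunit, read 56.0 and 64.7, 54.1 and 64.6, 60.2 and 66.5, and 62.6 and 59.7, again with overlapping groups. mt-Nd6 (13552 to 14070, minus strand) read 31.8 and 35.9, 28.2 and 35.6, 36.1 and 36.6, and 36.1 and 34.3, and both 48 h values lay just above the 0 h values. mt-Nd5 and mt-Nd6 lie on opposite strands and share 14 bases; mt-Nd6 stood at 0.562 ± 0.0231 (SD, n = 8 libraries) of mt-Nd5. The counting tool and its use of strand are unknown, and sense and antisense RNA over such bases, or over any minus-strand gene, cannot be told apart. mt-Cytb read 95.5 and 110.2, 97.8 and 104, 103 and 112, and 105 and 96.4, with overlapping groups.

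mt-Nd3 (ENSMUSG00000064360.1, GRCm38 chromosome M, 9459 to 9806, plus strand), the complex I subunit with the loop that changes shape between the active and resting enzyme, had the lowest fitted difference of the 13 coding genes at 48 h and at 72 h. It read 147 and 144 at 0 h, then 149 and 144 at 24 h, 137 and 142 at 48 h, and 130.5 and 126 at 72 h. Both 72 h values were below the other 6, and the 48 h values were below both 0 h values. Its share of the summed coding signal, which does not depend on the scaling of a library, was 6.91% ± 0.493, 7.18% ± 0.691, 6.34% ± 0.130 and 6.17% ± 0.141 at 0, 24, 48 and 72 h, and the shares at 48 and 72 h lay below both 0 h shares. Shares of other coding genes were also apart from 0 h: mt-Nd4 was higher at 24 and 72 h, mt-Atp8 and mt-Atp6 at 48 h, and mt-Co1 and mt-Nd6 at 72 h. The fitted difference at 72 h was -0.18 on the log2(signal + 1) scale (SE 0.06; unadjusted p = 0.0208; limma adjusted p = 0.212), so mt-Nd3 did not pass the test. With quantile normalization the difference was -0.09. With equal sums of the 13 coding genes in each library, the fit that corresponds to the shares, it was -0.16 (limma adjusted p = 0.9996). The lower share therefore did not pass a test either.

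Tested against 0 h with limma, with Benjamini-Hochberg adjustment over the 9606 genes that averaged a signal of 1 or more, 0 of 13 coding genes were called at an adjusted p under 0.05 at 24 h, 48 h or 72 h. Of all 9606 tested genes, 0.229% were called at 24 h, 0.552% at 48 h and 2.01% at 72 h. An F test over the 3 later times called 0 of 13, against 0.344% of all tested genes. Without adjustment, 1 of the 13 coding genes had a p under 0.05 (mt-Nd3 at 72 h). The other 2 classes had 0 calls as well: 0 of 18 tested tRNA genes and 0 of 2 rRNA genes at each time and in the F test, with 4 and 0 unadjusted p under 0.05 over the 3 times. Over all 33 tested members and 3 times, 5 of 99 unadjusted p-values were under 0.05 and the lowest adjusted p was the 0.212 of mt-Nd3. By time, these were 0 of 33 at 24 h, 1 at 48 h and 4 at 72 h, beside 13.2%, 10.5% and 15.7% of all tested genes.

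The median difference of the 13 coding genes from 0 h was -0.03 at 24 h, 0.07 at 48 h and -0.02 at 72 h on the log2(signal + 1) scale, beside 0.01, 0.00 and 0.01 for all tested genes. At 24 h, 3 coding genes were above 0 and 10 below. At 48 h, 11 were above and 2 below, and at 72 h, 5 were above and 8 below. The 95% limma intervals of the 13 genes lay between -0.35 and 0.28 at 24 h, between -0.21 and 0.36 at 48 h and between -0.34 and 0.31 at 72 h. As folds of signal + 1, these outer bounds are 0.783 and 1.22, 0.862 and 1.28, and 0.791 and 1.24. A change beyond these bounds lies outside the interval of each of the 13 genes. The sign of the 72 h median turned with the scaling. With equal sums of nuclear protein-coding genes in each library the 72 h median was 0.03, and with quantile normalization it was 0.08. With equal sums of the 13 coding genes the 24 h median was 0.02 and the 72 h median 0.01. That scaling holds these medians near 0 by construction, so their sign there tells nothing. The sign of the median also turned on leaving out 1 library. The 24 h median was 0.03 without replicate 1 at 24 h, 0.02 without replicate 2 at 0 h, -0.08 without replicate 2 at 24 h and -0.13 without replicate 1 at 0 h. The 48 h median was -0.00 without replicate 1 at 0 h, 0.02 without replicate 2 at 48 h, 0.13 without replicate 1 at 48 h and 0.17 without replicate 2 at 0 h. The 72 h median was 0.05 without replicate 2 at 72 h, 0.07 without replicate 2 at 0 h, and -0.07 without replicate 1 at either 0 or 72 h.

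Libraries of coding genes that did not overlap those of 0 h were also few. At 24 h, 0 of 13 coding genes lay wholly below 0 h, against 17.8% of all tested genes, and 0 lay wholly above, against 24.4%. At 48 h, 1 lay below (mt-Nd3; 22% of all tested genes) and 2 above (mt-Atp8 and mt-Nd6; 24.3%). At 72 h, 1 lay below (mt-Nd3; 22.4%) and 0 above (27.4%). The SD of log2(signal + 1) over the 8 libraries had a median of 0.0897 for coding genes, from 0.0598 for mt-Co3 to 0.126 for mt-Nd6, beside 0.0774 for all tested genes and 0.0931 for the 366 genes at least as high as mt-Nd6.

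**Figure D2:**
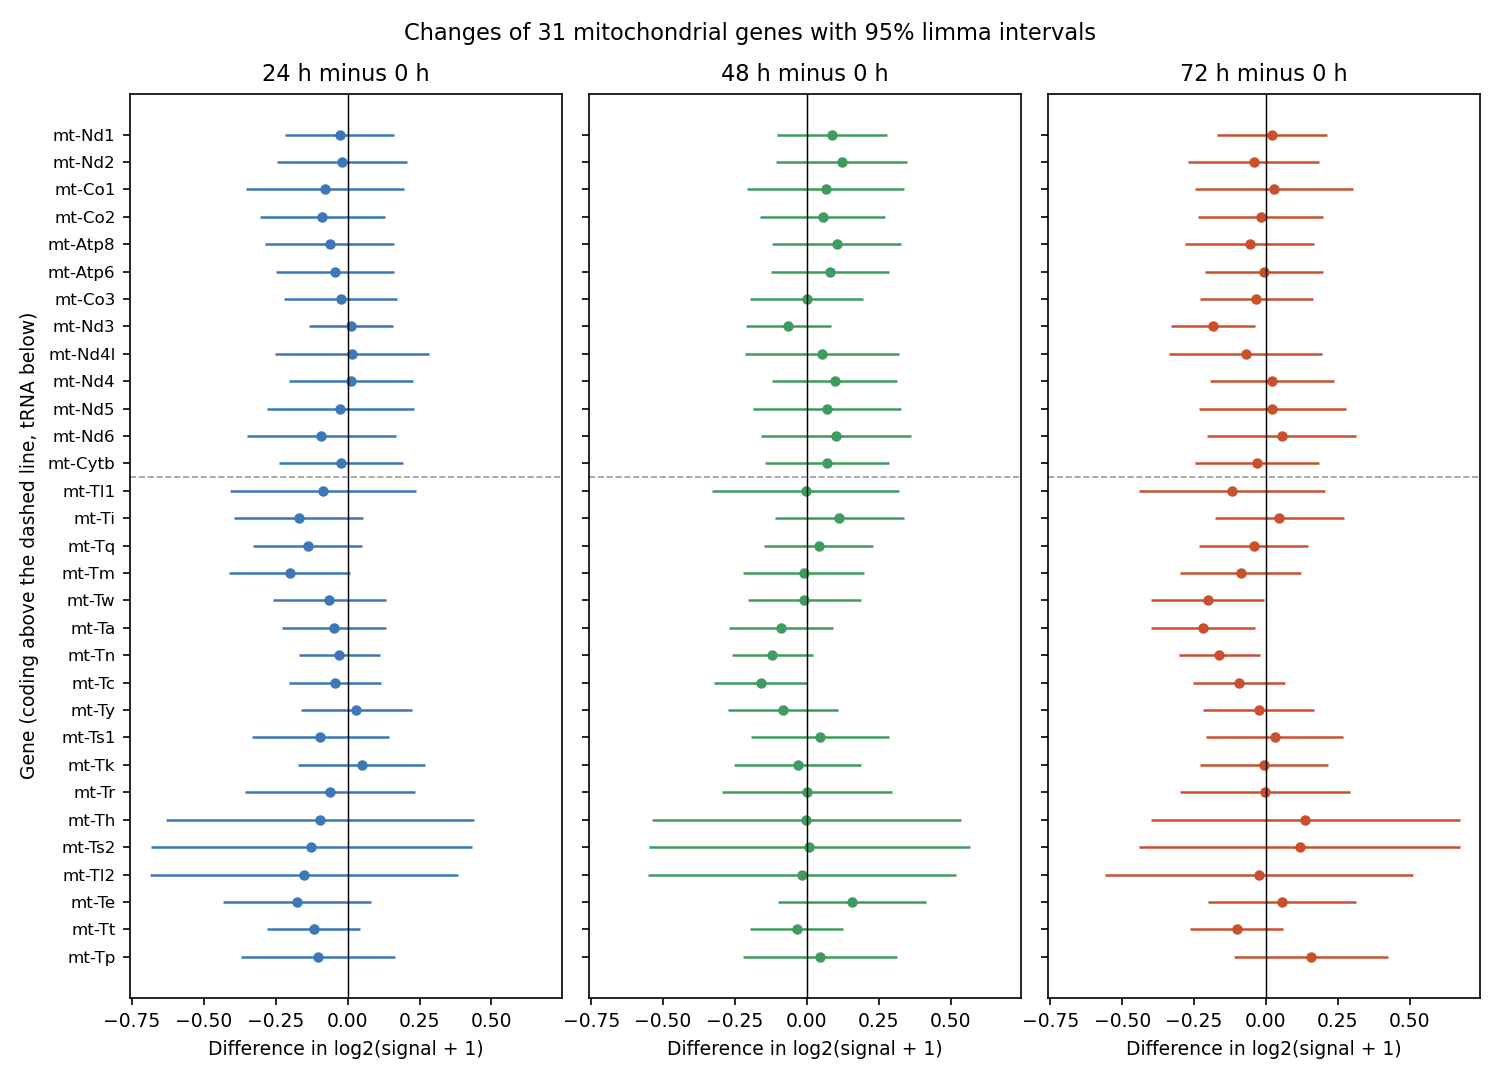
Difference from 0 h in log2(signal + 1) for each tested coding gene (above the dashed line) and tRNA gene (below it) at 24, 48 and 72 h, with points for the limma estimate and lines for its 95% interval. Nearly all intervals cross 0; those of mt-Nd3, mt-Tw, mt-Ta and mt-Tn at 72 h and of mt-Tc at 48 h do not, and none of these passed the adjusted test.

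Coding genes of a library moved together. Replicate 2 exceeded replicate 1 for 12 of 13 coding genes at 0 h, 12 of 13 at 24 h and 13 of 13 at 48 h, and for 0 of 13 at 72 h. The median ratio of replicate 2 to replicate 1 was 1.12, 1.09, 1.06 and 0.951 at 0, 24, 48 and 72 h. Replicate 2 at 48 h was the highest library for 11 of 13 coding genes. Replicate 1 at 24 h was the lowest for 5 coding genes, and replicate 1 at 0 h and replicate 2 at 72 h for 4 each. As ratios, these differences between libraries of a group mostly exceeded the median group differences given above.

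Most tRNA genes had far less signal than the genes beside them. The tRNA genes are 59 to 75 bases long, and column kits and RNA libraries keep free RNA of this length poorly. Signal over a tRNA gene may therefore also come from uncut precursors or from reads that run in from a neighbour. These sources were not separated. Nuclear copies of tRNA genes were looked for among annotated transcripts only. Reads shared with other copies may also affect these levels, which was not tested. Of the 22, 18 had a mean of at least 1 and were tested, with means from 2.21 (mt-Tq) to 85.1 (mt-Ts1). The mean of each of the 18 was compared with the lower of its flanking rRNA or coding genes: 17 lay below that flank, with a median of 9.63% of it and a range over the 18 of 1.08% (mt-Tk) to 167% (mt-Tl1). All 8 minus-strand tRNA genes passed the filter, with a median of 7.22 over the 8, and 10 of 14 plus-strand tRNA genes did, with a median of 2.55 over the 14. That range depends on the uneven mt-Rnr2 values: without replicate 2 at 72 h, mt-Tl1 was 288% of mt-Rnr2. Sequences are shown for the highest tRNA genes (mt-Ts1 and mt-Tl1), for the 2 of lowest mean (mt-Tf and mt-Tv), for the overlapping mt-Ti and mt-Tq, and for mt-Th, mt-Ts2 and mt-Tl2, which varied most between libraries among the tested genes. Bases shared with another mitochondrial gene are in capitals.
mt-Tf (phenylalanine, 1 to 68, plus strand): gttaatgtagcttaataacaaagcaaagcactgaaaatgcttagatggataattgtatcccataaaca
mt-Tv (valine, 1025 to 1093, plus strand): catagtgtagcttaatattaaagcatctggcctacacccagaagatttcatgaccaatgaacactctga
mt-Tl1 (leucine UUR, 2676 to 2750, plus strand): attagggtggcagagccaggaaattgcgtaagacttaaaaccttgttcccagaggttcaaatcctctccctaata
mt-Ti (isoleucine, 3706 to 3774, plus strand): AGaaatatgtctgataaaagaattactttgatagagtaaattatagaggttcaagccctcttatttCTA
mt-Tq (glutamine, 3772 to 3842, minus strand): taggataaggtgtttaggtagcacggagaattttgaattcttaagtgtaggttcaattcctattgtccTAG
mt-Ts1 (serine UCN, 6870 to 6938, minus strand): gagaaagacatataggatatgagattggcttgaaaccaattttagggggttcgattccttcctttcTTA
mt-Th (histidine, 11546 to 11612, plus strand): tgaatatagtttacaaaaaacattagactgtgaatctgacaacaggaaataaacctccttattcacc
mt-Ts2 (serine AGY, 11613 to 11671, plus strand): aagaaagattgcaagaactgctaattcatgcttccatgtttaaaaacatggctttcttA
mt-Tl2 (leucine CUN, 11671 to 11741, plus strand): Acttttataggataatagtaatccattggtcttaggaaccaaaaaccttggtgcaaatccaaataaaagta
Positions are on GRCm38 chromosome M and the sequences are from GENCODE M21.

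The 4 tRNA genes below the filter are all on the plus strand. mt-Tf, the first gene after the control region, was listed at 0 in 6 of 8 libraries, with 0.00342 in replicate 1 at 0 h and 0.0124 in replicate 2 at 72 h. mt-Tv, which lies between the rRNA genes, averaged 0.180 over the 8 libraries, with a lowest value of 0.0682 and a highest of 0.253. mt-Td (mean 0.655) and mt-Tg (mean 0.814) lie beside mt-Co2 and mt-Nd3 and had 0.263% and 0.582% of the lower flank. The deposited values do not separate a tRNA that is absent from one that the library does not hold.

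mt-Ts1 stood apart among the tRNA genes. It read 80.4 and 90.3, 72.7 and 87.5, 86.5 and 89.6, and 84.6 and 89.6, and its mean was 9.72-fold that of the next tRNA gene, mt-Tl1. It lies on the strand opposite mt-Co1, directly after it, and shares its last 3 bases with the end of that gene (capitals in the sequence above). In mammals the mature mt-Co1 messenger RNA runs on across the antisense of this tRNA. The mt-Ts1 to mt-Co1 ratio was 0.250 ± 0.00750 (SD, n = 8 libraries), between 0.241 and 0.263, and which strand the signal came from is not given. mt-Ts1 did not pass the test at any time, with limma adjusted p of 0.718, 0.928 and 0.935 at 24, 48 and 72 h.

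mt-Tl1 lies between mt-Rnr2 and mt-Nd1 and was the 1 tested tRNA gene whose mean was above that of its lower flank. It read 7.87 and 10.4, 7.67 and 9.38, 8.35 and 9.78, and 8.40 and 8.16. It was 0.102 ± 0.00774 (SD, n = 8 libraries) of mt-Nd1, and in replicate 2 at 72 h, where mt-Rnr2 was at its highest, mt-Tl1 was within the range of the other libraries. It was above mt-Rnr2 in 7 of 8 libraries, and in replicate 2 at 72 h it was 39.7% of it. mt-Ti and mt-Tq, which overlap by 3 bases on opposite strands, averaged 2.41 and 2.21, and mt-Tm beside them 2.34.

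**Figure D3:**
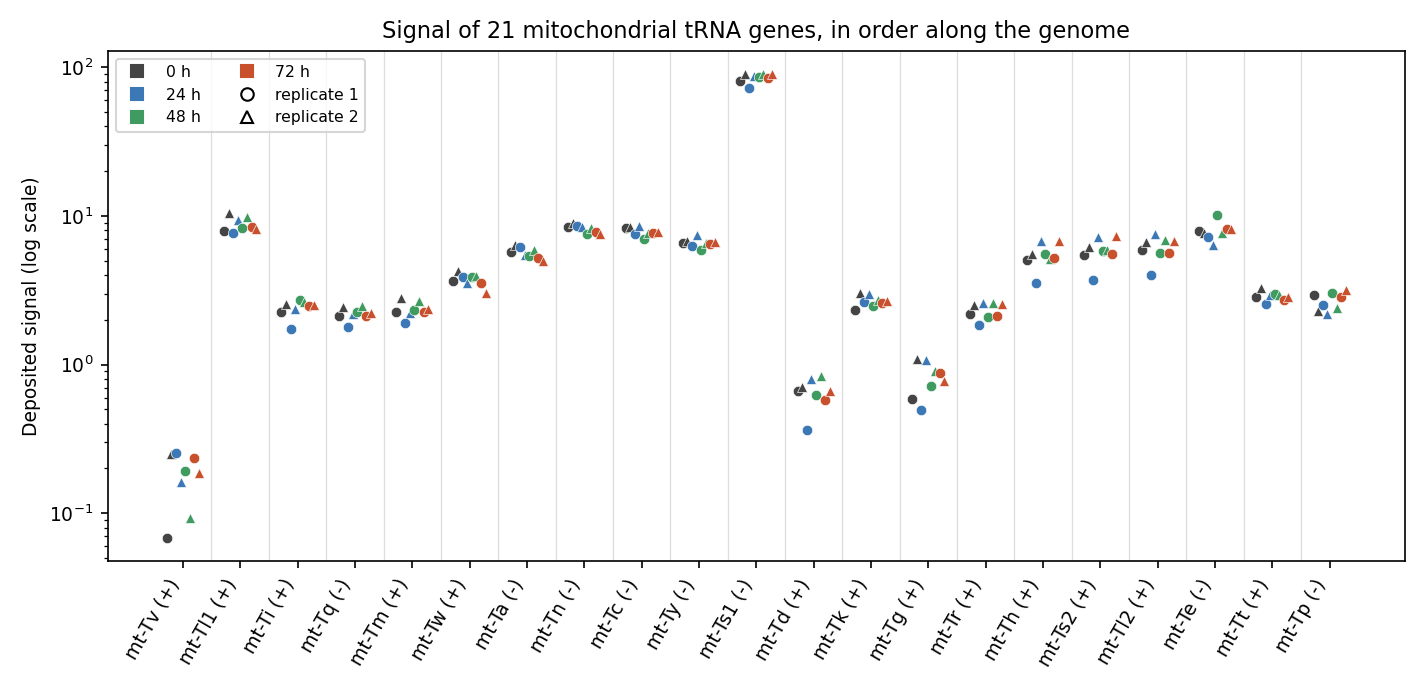
Deposited signal (log scale) of the mitochondrial tRNA genes in genome order, with the strand in brackets, 1 point per library, coloured by hours of tamoxifen and shaped by replicate; mt-Tf, at 0 in 6 of 8 libraries, is not drawn. mt-Ts1 lies 9.72-fold above the next tRNA gene, and mt-Tv, mt-Td and mt-Tg lie lowest.

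Between mt-Nd2 and mt-Co1 lie mt-Tw on the plus strand and mt-Ta, mt-Tn, mt-Tc and mt-Ty on the minus strand, with the origin of light-strand replication between mt-Tn and mt-Tc. mt-Tw read 3.65 and 4.24, 3.90 and 3.55, 3.88 and 3.93, and 3.57 and 3.02. mt-Ta read 5.75 and 6.42, 6.23 and 5.47, 5.39 and 5.92, and 5.19 and 4.97. mt-Tn read 8.39 and 8.95, 8.50 and 8.45, 7.54 and 8.27, and 7.76 and 7.52. In these 3 genes both 72 h libraries were below both 0 h libraries, by a small margin for mt-Tw.

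mt-Tc read 8.25 and 8.38, 7.59 and 8.50, 6.96 and 7.72, and 7.71 and 7.75, so it was below 0 h at both 48 and 72 h. mt-Ty, the neighbour of mt-Co1, read 6.56 and 6.81, 6.26 and 7.47, 5.94 and 6.59, and 6.45 and 6.66, and overlapped 0 h at each time. The fitted 72 h differences were -0.22 for mt-Ta (limma adjusted p = 0.230), -0.16 for mt-Tn (0.252) and -0.20 for mt-Tw (0.303), and the 48 h difference of mt-Tc was -0.16 (0.473). The mt-Tw difference was -0.11 without replicate 2 at 72 h and -0.12 without replicate 2 at 0 h, and that of mt-Tc was -0.10 without replicate 1 at 48 h. None of the 4 passed the test; they were singled out here after their values were seen, by their unadjusted p.

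mt-Th, mt-Ts2 and mt-Tl2, which follow each other between mt-Nd4 and mt-Nd5, varied most between libraries among the tested tRNA genes. mt-Th read 5.09 and 5.57, 3.52 and 6.75, 5.52 and 5.12, and 5.22 and 6.78. mt-Ts2 read 5.45 and 6.21, 3.73 and 7.25, 5.82 and 5.91, and 5.57 and 7.33. mt-Tl2 read 5.92 and 6.69, 4.03 and 7.57, 5.64 and 6.84, and 5.64 and 6.76. In all 3 genes the 24 h libraries were the lowest and the highest or next to highest of the 8, and the mt-Ts2 to mt-Th ratio stayed at 1.08 ± 0.0339 (SD, n = 8 libraries). Replicate 1 at 24 h was the lowest library for 10 of the 18 tested tRNA genes, as it was for 5 coding genes.

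mt-Te, beside mt-Nd6 on the minus strand, read 7.96 and 7.70, 7.23 and 6.42, 10.1 and 7.73, and 8.16 and 8.18. It was below 0 h at 24 h and above it at 72 h, in each case without overlap, and neither difference passed the test (limma adjusted p = 0.528 and 0.878). Over the 18 tested tRNA genes, 2 lay wholly below 0 h at 24 h (mt-Tm and mt-Te) and 0 above. Of all tested genes, 17.8% lay below and 24.4% above at that time. At 48 h, 2 lay below (mt-Tn and mt-Tc) and 1 above (mt-Ti), beside 22% and 24.3% of all tested genes. At 72 h, 5 lay below (mt-Tw, mt-Ta, mt-Tn, mt-Tc and mt-Tt) and 1 above (mt-Te), beside the 22.4% and 27.4% of all tested genes. The median difference of the 18 was -0.10 at 24 h, -0.01 at 48 h and -0.02 at 72 h on the log2(signal + 1) scale, and their 95% intervals lay within -0.69 and 0.68 at all 3 times. These medians moved on leaving out 1 library: at 24 h to 0.00 and -0.20 without replicate 1 or 2 at 24 h, and to -0.15 and -0.04 without replicate 1 or 2 at 0 h. At 48 h the median was -0.09 and 0.07 without replicate 1 or 2 at 0 h, and 0.01 and -0.05 without replicate 1 or 2 at 48 h. At 72 h it was -0.10 and 0.03 without replicate 1 or 2 at 0 h, and 0.00 and -0.08 without replicate 1 or 2 at 72 h. With equal sums of nuclear protein-coding genes it was 0.01 at both 48 and 72 h.

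The remaining tested tRNA genes had means between 2.32 and 2.88. mt-Tk, between mt-Co2 and mt-Atp8, averaged 2.68 and overlapped 0 h at each time. mt-Tr, after mt-Nd3, averaged 2.32, and mt-Tt and mt-Tp, which lie end to end on opposite strands after mt-Cytb, averaged 2.88 and 2.67. mt-Tt, at 2.86 and 3.26 at 0 h, read 2.71 and 2.84 at 72 h, which is lower without overlap but by a margin smaller than the distance between the 0 h libraries.

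The rRNA genes encode the RNA of the small (mt-Rnr1, ENSMUSG00000064337.1, GRCm38 chromosome M, 70 to 1024) and large (mt-Rnr2, ENSMUSG00000064339.1, 1094 to 2675) subunits of the mitochondrial ribosome. Ribosomal RNA was depleted before the libraries were made, per the labels' protocols, so these values are what depletion left. mt-Rnr1 read 1.30 and 2.20 at 0 h, 1.14 and 3.43 at 24 h, 2.21 and 5.97 at 48 h, and 1.23 and 25.1 at 72 h. mt-Rnr2 read 1.93 and 2.77, 1.93 and 3.72, 3.05 and 6.05, and 2.04 and 20.6. Replicate 2 at 72 h stood far above the other 7 libraries, whose highest values were 5.97 and 6.05, while replicate 1 at 72 h was as low as the 0 h libraries.

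Replicate 2 was the higher library at each of the 4 times for both rRNA genes. The ratio of replicate 2 to replicate 1 was 1.69, 3.01, 2.70 and 20.4 for mt-Rnr1 at 0, 24, 48 and 72 h, and 1.43, 1.92, 1.99 and 10.1 for mt-Rnr2. mt-Nd1, the next coding gene after mt-Rnr2 and separated from it by mt-Tl1, varied from 79.1 to 92.2 over the same libraries. The mt-Rnr2 to mt-Nd1 ratio therefore ran from 0.0234 in replicate 1 at 72 h to 0.245 in replicate 2 at 72 h. The mt-Rnr1 to mt-Rnr2 ratio ran from 0.588 to 1.22 and was highest in the library where both were highest.

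Neither rRNA gene passed the test. The 72 h difference on the log2(signal + 1) scale was 1.49 for mt-Rnr1 (SE 1.03; limma adjusted p = 0.549) and 1.28 for mt-Rnr2 (SE 0.80; limma adjusted p = 0.508). Without replicate 2 at 72 h, these became -0.28 and -0.13, so the direction rested on that library. At 48 h both libraries were above both 0 h libraries for both genes, with adjusted p of 0.872 and 0.861 in the limma fit. Of all tested genes, 24.3% also lay wholly above 0 h at that time. The rRNA content of the cells and the amount left by depletion cannot be told apart here.

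Other genes were high in the same libraries; those named here were picked for that after their values were seen. Lars2, the nuclear gene for the synthetase that charges mt-Tl1 and mt-Tl2, read 1.31 and 1.10, 0.794 and 4.69, 2.33 and 7.73, and 0.837 and 37.3. Gm23935, a gene of chromosome 16 annotated as a microRNA, read 58.7 and 69.2, 58.5 and 115, 97.9 and 214, and 55.1 and 1091. Both were highest in replicate 2 at 72 h and next in replicate 2 at 48 h, as the rRNA genes were. Lars2 did not pass the test (limma adjusted p = 0.883, 0.831 and 0.537 at 24, 48 and 72 h). What part depletion had in these values was not tested.

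**Figure D4:**
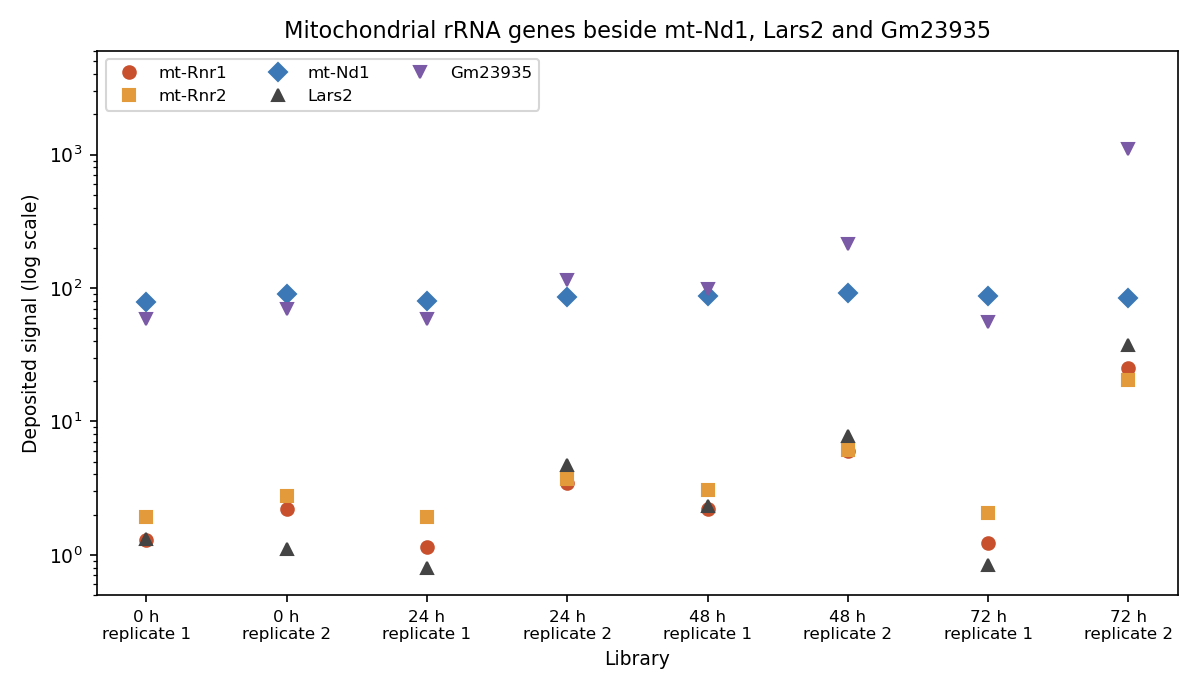
Deposited signal (log scale) of mt-Rnr1, mt-Rnr2, the neighbouring coding gene mt-Nd1, and of Lars2 and Gm23935, in each of the 8 libraries. Both rRNA genes, Lars2 and Gm23935 are highest in replicate 2 at 72 h, while mt-Nd1 stays between 79.1 and 92.2.

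Nuclear copies of mitochondrial DNA share sequence with the members, and how reads that fit several places were counted is not stated. A block of 7 annotated genes on chromosome 1 (GRCm38, 24611535 to 24616197, minus strand) matches mt-Co1, mt-Co2, mt-Atp6, mt-Co3, mt-Nd3, mt-Nd4l and mt-Nd4 in the same order and orientation. Over the aligned bases 5 of the 7 are identical to the mitochondrial gene and the other 2 have 1 mismatch each. Gm10925, Gm28437, Gm28661 and Gm10222, identical to nearly all of mt-Atp6, mt-Co3, mt-Co2 and mt-Nd4l, had 0.997 to 1.003 of the signal of those genes in each of the 8 libraries, so the values of copy and gene differed by at most 0.29%. Over identical bases, RNA of the nuclear copy and of the mitochondrial gene cannot be told apart. The search for copies covered annotated transcripts only, so coding genes without a listed copy may also be exposed to this. mt-Atp8, for example, shares 43 bases with mt-Atp6, which has such a copy. Levels, shares and ratios compared between coding genes may therefore depend on how such reads were counted, which was not tested.

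The copies with a mismatch or a partial match had other ratios. Gm28438, the mt-Nd3 copy, differs by T3C, with positions counted from 1 at the first base of the mitochondrial gene, and read 1.03 to 1.04 times mt-Nd3. It read 151 and 149.6 at 0 h and 134.9 and 129.9 at 72 h. As these genes share all but 1 of the aligned bases, the values of Gm28438 are not taken as independent of mt-Nd3. Gm28439 is identical to bases 1 to 876 of mt-Nd4 and read 0.809 to 0.852 of the whole gene. Gm29216 covers bases 1063 to 1545 of mt-Co1 with the mismatch A1066T and read 0.671 to 0.708 of it. The first 60 bases of mt-Nd3 and its copy are shown to make the 1 mismatch visible, in capitals.
mt-Nd3: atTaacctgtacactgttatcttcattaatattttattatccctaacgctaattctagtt
Gm28438: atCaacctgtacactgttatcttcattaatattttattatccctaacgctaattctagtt
Of these 7 copies 0 passed the test at any time, and their lowest limma adjusted p was 0.210, at 72 h.

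Where a copy has diverged, its signal was low. Gm13340 on chromosome 2 matches all 1545 bases of mt-Co1 with 37 mismatches (97.6% identity) and averaged 1.50, which was 0.00351 to 0.00479 of mt-Co1. Gm13341, also on chromosome 2, is 95.9% identical to mt-Co2 and averaged 5.62, at 0.0214 to 0.0237 of it. Bases 451 to 750 of mt-Co1 and of Gm13340 are shown with their 11 mismatches in capitals.
mt-Co1: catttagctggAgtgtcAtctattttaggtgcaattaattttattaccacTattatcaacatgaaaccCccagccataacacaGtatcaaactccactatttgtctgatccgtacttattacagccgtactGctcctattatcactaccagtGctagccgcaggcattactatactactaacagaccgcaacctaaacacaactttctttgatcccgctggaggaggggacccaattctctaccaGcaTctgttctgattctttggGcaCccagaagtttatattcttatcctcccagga
Gm13340: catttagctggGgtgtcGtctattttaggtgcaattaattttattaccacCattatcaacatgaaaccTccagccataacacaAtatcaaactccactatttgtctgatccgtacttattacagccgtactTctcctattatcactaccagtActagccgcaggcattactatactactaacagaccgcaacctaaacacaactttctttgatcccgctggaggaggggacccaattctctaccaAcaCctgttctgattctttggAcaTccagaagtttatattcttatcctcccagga
The chromosome 1 copies, with at most 1 mismatch, and the chromosome 2 copies, with more, thus fell into separate ranges of the ratio.

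**Figure D5:**
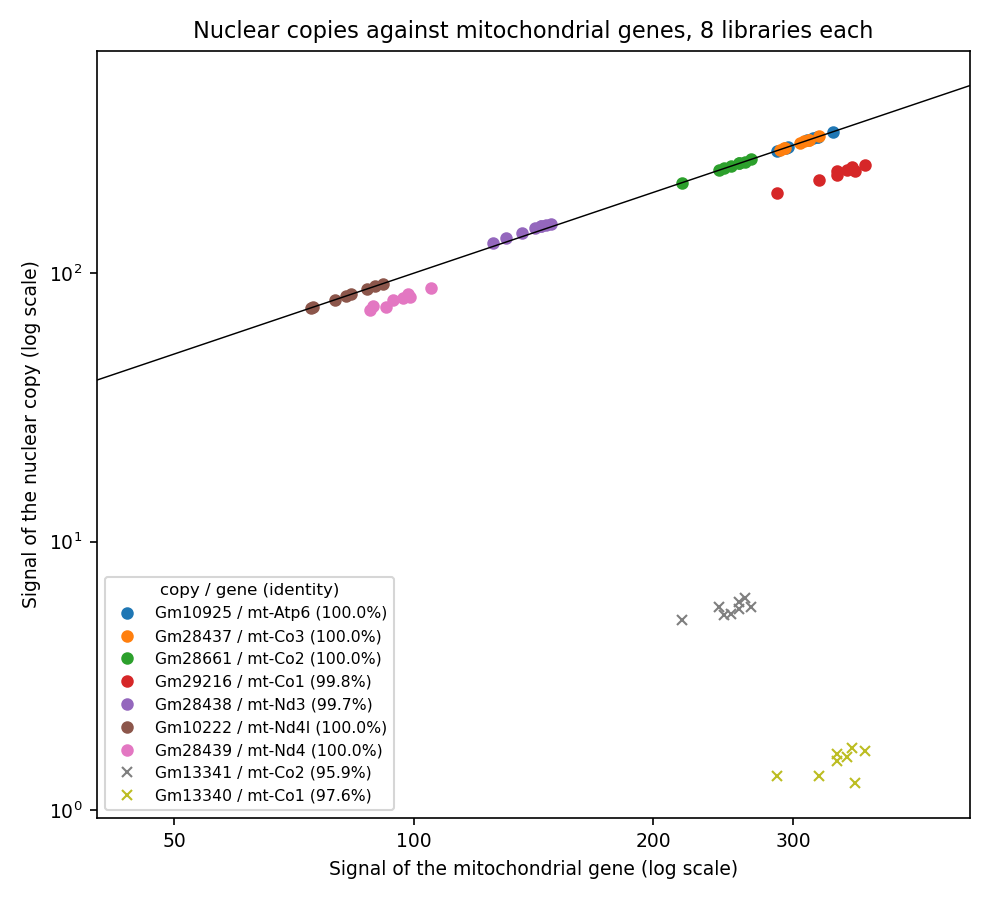
Deposited signal of nuclear copies against that of the mitochondrial gene they match, both on log scales, with 8 libraries for each pair and the line of equal values. The copies identical over nearly their whole gene lie on the line, the chromosome 1 copies of part of mt-Co1 and mt-Nd4 lie below it at ratios of 0.671 to 0.852, and the diverged chromosome 2 copies lie far below, at ratios under 0.0237.

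Nuclear genes that serve the mitochondrial genome were counted in the same fit. In 6 lists with 101 genes, 71 were tested; 0 were called at 24, 48 or 72 h, and 5, 3 and 5 of them had an unadjusted p under 0.05. Of all tested genes, 0.229%, 0.552% and 2.01% were called at these times and 13.2%, 10.5% and 15.7% had an unadjusted p under 0.05. Of 19 genes for transcription and replication, 12 were tested, with median differences of 0.02, 0.04 and 0.03 at the 3 times. Tfam, which packs the genome and starts its transcription, read 4.80 ± 0.425, 4.67 ± 0.237, 5.21 ± 0.0605 and 5.34 ± 0.0523 at 0, 24, 48 and 72 h (limma adjusted p = 0.854, 0.666 and 0.371). Polrmt, the mitochondrial RNA polymerase, read 1.89 ± 0.272, 1.95 ± 0.0764, 1.77 ± 0.0775 and 2.06 ± 0.0560 (limma adjusted p = 0.857, 0.865 and 0.601).

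Of 22 genes for processing and stability of mitochondrial RNA, 20 were tested, with median differences of 0.04, 0.02 and 0.04. Lrpprc, which keeps mitochondrial messenger RNAs stable, read 2.54 ± 0.256, 2.45 ± 0.811, 2.26 ± 0.177 and 2.51 ± 0.148 (limma adjusted p = 0.895, 0.870 and 0.982). Of 28 genes for tRNA charging and modification, 17 were tested, with medians of 0.10, 0.06 and 0.06. For rRNA modification and ribosome assembly 6 of 12 were tested (0.05, 0.01 and 0.00), for biogenesis regulators 5 of 9 (0.13, -0.00 and 0.04), and for import and mitochondrial mass 11 of 11 (0.05, 0.00 and -0.01). All of these medians are differences from 0 h on the log2(signal + 1) scale, beside 0.01, 0.00 and 0.01 for all tested genes.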

How the data were processed

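RNA-seq was made from 8 AtT-20 ER-Pax7 libraries; groups and replicate numbers come from the labels. The authors deposited 1 signal value per gene and library, read from the values and columns as normalized mean coverage over exons; the rule of scaling, the counter, its use of strand and of reads that fit several places, and the annotation are not stated. Per the submitters' processing notes, the tools included HISAT2 2.2, SAMtools 1.12 and deepTools 3.5, on mm10 (GRCm38). Genes with a mean of at least 1 were fitted as log2(signal + 1) with limma 3.58.1 in R 4.3.3, all 4 groups in 1 fit with an intensity trend and 4 residual degrees of freedom, Benjamini-Hochberg adjustment over 9606 genes and a threshold of 0.05. On that scale fold changes of low genes are understated. Sequences and positions are from GENCODE M21 on GRCm38, where 37 of 37 members have the same start and end. Nuclear copies were looked for among the annotated transcripts with blastn 2.17.0 (at least 60 bases and 90% identity).

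All members were named; of other genes, only Tfam, Polrmt, Lrpprc, the nuclear copies with a mean of at least 1 and list genes called by the fit were to be named, and exceptions are stated. Cep295, with short tRNA-like matches, was left out of the text. The members and lists were chosen with earlier results of these data known. The fit was also run on simulated data in which each gene varied independently, so shifts shared by the genes of a library were not modelled. Its outcome is not used here. Alternatives were other pseudocounts, filters, scalings, fits, a replicate block and leaving out each library.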

Additional observations from a re-analysis of the deposited data

How the results depend on the processing

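Counts of called mitochondrial genes (coding, tRNA and rRNA, at 24, 48 and 72 h and at any time) were recomputed with limma under 18 alternatives, which gave 213 values, all of them 0; an F test could not be formed where only the groups compared were fitted. The lowest adjusted p over these was 0.0698, for a tRNA gene in the F test without replicate 2 at 24 h. The number of unadjusted p-values under 0.05, of 99, was 5 as reported, 16 without replicate 2 at 24 h, and 0 without replicate 2 at 72 h or with equal sums of nuclear protein-coding genes. With the replicate number as a block, 0 members were called, beside 18, 24 and 154 of the 9606 tested genes at 24, 48 and 72 h. Unadjusted p-values under 0.05 then numbered 6 for the members, and 1311, 1035 and 1516 for all tested genes at these times. Same-numbered libraries of 6 pairs of groups had deviations from their group means that correlated across genes at -0.0163 to 0.402. The 3 pairs over 0.1 were those among 0, 24 and 48 h (0.177, 0.337 and 0.402). The labels state no pairing and the main fit has no block. Whether same-numbered libraries share a source at these times was not tested. The 72 h difference of mt-Nd3 kept its sign and ran from -0.21 to -0.09. The 24 h difference turned to -0.06 for mt-Rnr1 and -0.02 for mt-Rnr2 without replicate 1 at 0 h, and to -0.34 and -0.18 without replicate 2 at 24 h; without replicate 1 at 24 h it was 0.71 and 0.50. The 72 h difference turned to -0.28 for mt-Rnr1 and -0.13 for mt-Rnr2 without replicate 2 at 72 h, and the highest values over the alternatives were 3.27 and 2.70. These settings leave 1 library in a group, which is assumed to vary like the others. Read depth is not given, so the counting error of low genes such as mt-Tf and mt-Tv is unknown.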
